A study of Mus musculus with 9 samples.

Results

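The 10 genes studied here belong to the prostaglandin and leukotriene pathway and were followed in differentiating primary mouse muscle cells. They are Pla2g4a, Ptgs1, Ptgs2, Ptges, Ptgis, Ptger2, Ptger4, Ptgfr, Alox5 and Alox5ap, taken by gene symbol, and all 10 of 10 were measured among 25268 tested genes on the arrays. The cells were myoblasts grown from satellite cells of C57BL/6 skeletal muscle (the N substrain in the methods, adult wild-type mice) and put into differentiation medium for 24 h, a step that every group shared. Control cells were left untreated, TGFβ1 cells received 20 ng/ml of recombinant TGFB1 and ITD-1 cells received ITD-1, a small molecule that takes TGFBR2, the receptor that binds TGFβ, off the cell surface, each for a further 24 h. ITD-1 is labelled as 5 mM, where the written protocol has 5 µM. Each group had 3 arrays (9 in all). The labels do not say whether the replicates of a group were separate cultures, and the legend to these arrays calls them biologically independent experiments. The satellite cells had been isolated by magnetic depletion, in which antibodies against other cell types hold those cells back on a column.

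Prostaglandins and leukotrienes are lipid signals cut from membranes. Cytosolic phospholipase A2 releases arachidonic acid, which the cyclooxygenases turn into prostaglandin H for a set of terminal synthases, or which 5-lipoxygenase turns into leukotriene A with the help of its activating protein. The products leave the cell and act on receptors of the same or neighbouring cells, and in skeletal muscle prostaglandins are known for their part in myoblast fusion, growth and repair.

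Values are log2 signals after robust multi-array average (RMA) normalization, on which a difference of 1 is a doubling of signal, and values after ± are SD over 3 arrays. They tell neither a share of cells from an amount per cell nor one probe set's abundance from another's. One limma fit over the 9 arrays gave all differences, and a difference was called where its p, adjusted by Benjamini-Hochberg over the 25268 genes, was under 0.05. The genes were chosen by name with earlier results of these same contrasts in view (the log2 signals of the 3 groups), so their adjusted p-values describe the arrays and are not independent support. Array medians lay between 4.11 and 4.20. Control 3, TGFβ1 3 and ITD-1 2 had the narrowest spread of values (SD 2.00 to 2.01, against 2.03 to 2.08 on the other 6 arrays), and results that moved without them are given beside the result. Of 8 known TGFβ response genes, 8 were higher with TGFβ1 and 3 lower with ITD-1. All 9 muscle markers had group means above the median of all genes, and with TGFβ1 1 was higher and 1 lower.

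With TGFβ1, 4 of the 10 genes rose and 1 fell, where 3.76% of all genes rose and 2.78% fell. The 4 were Ptgs2, Alox5, Pla2g4a and Ptgs1, that is a phospholipase, both cyclooxygenases and 5-lipoxygenase, and the one that fell was Ptgis, the prostacyclin synthase. With ITD-1, 2 of the 10 fell (Ptgs2 and Alox5) and 0 rose (3 differed at an unadjusted p under 0.05 by limma), where 0.582% of all genes fell and 0.0594% rose. The share of all genes at the unadjusted threshold was not counted, so the 3 has no background beside it. By arrays alone, the TGFβ1 and control groups did not overlap for 5 genes that were higher and 1 that was lower (10.5% and 10.1% of all genes), and the ITD-1 and control groups for 0 that were higher and 4 that were lower (5.24% and 5.99%). The median log2 difference of the 10 genes was 0.26 with TGFβ1 and -0.11 with ITD-1, beside -0.01 and 0.01 over all genes. Ptgs2 and Alox5 were called in both comparisons, which share the control arrays, and 0.435% of all genes were called higher with TGFβ1 and lower with ITD-1.

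**Figure D1:**
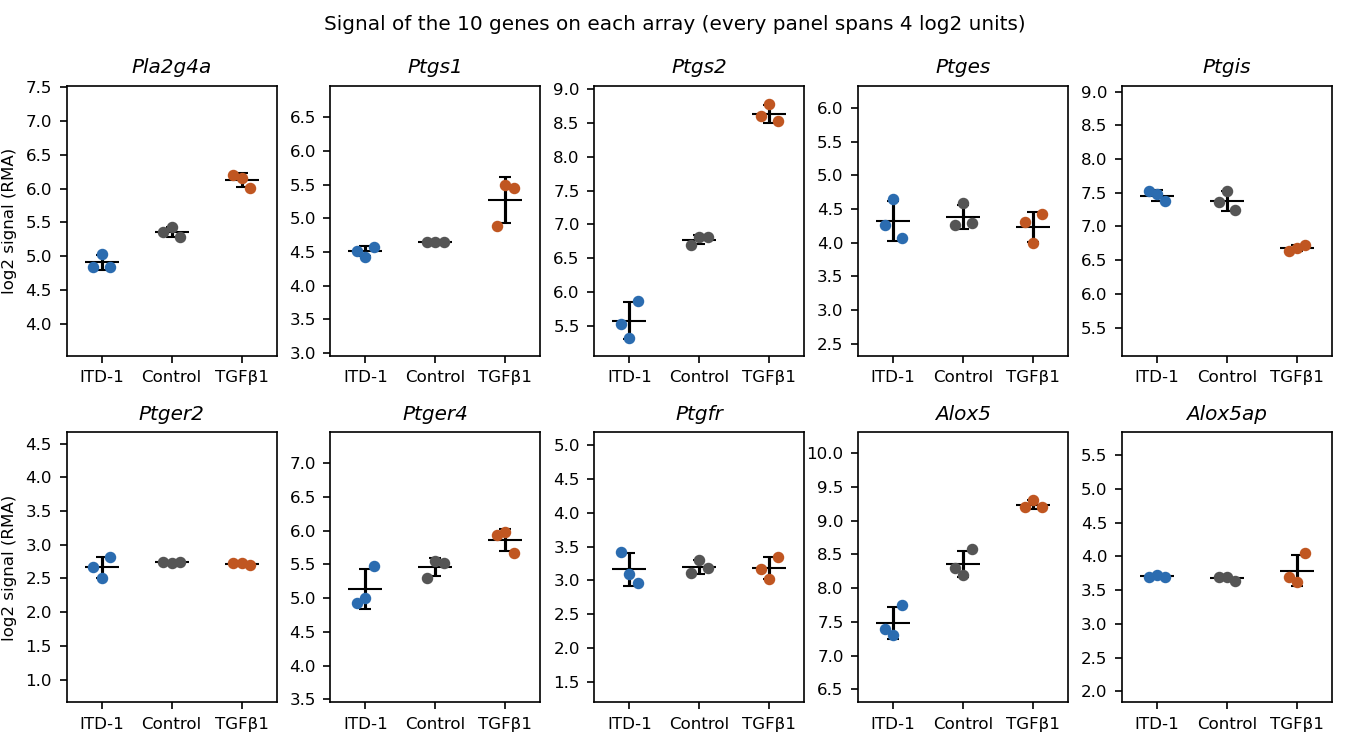
Log2 signal (RMA) of each of the 10 genes on the 9 arrays. Points are arrays, horizontal lines are group means and bars are SD (n = 3), and every panel spans the same number of log2 units. Ptgs2, Alox5, Pla2g4a and Ptgs1 step up from the ITD-1 arrays through the control arrays to the TGFβ1 arrays without overlap, and Ptgis is lower on the TGFβ1 arrays.

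The promoters of the genes that moved most and stepped in order over the 3 groups are shown here because the results turn on these 3 genes. RefSeq (GRCm38.p6) gave a promoter, from 250 bases before to 50 after the transcription start, for 8 of the 10 genes. Each is printed 5′ to 3′ on the strand of its gene, and capitals mark matches, on either strand, to the 6 short motifs spelled out after the sequences. Ptgs2 lies at chr1:150099781-150100080 (plus strand), Alox5 at chr6:116461129-116461428 (minus strand) and the first of 2 Pla2g4a starts at chr1:149961241-149961540 (minus strand).
Ptgs2: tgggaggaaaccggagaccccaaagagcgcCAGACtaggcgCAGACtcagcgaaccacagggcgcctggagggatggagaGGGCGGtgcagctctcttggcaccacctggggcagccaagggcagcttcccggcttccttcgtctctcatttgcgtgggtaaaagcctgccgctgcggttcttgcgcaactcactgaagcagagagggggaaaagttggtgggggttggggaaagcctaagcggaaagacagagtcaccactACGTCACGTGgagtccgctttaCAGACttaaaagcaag
Alox5: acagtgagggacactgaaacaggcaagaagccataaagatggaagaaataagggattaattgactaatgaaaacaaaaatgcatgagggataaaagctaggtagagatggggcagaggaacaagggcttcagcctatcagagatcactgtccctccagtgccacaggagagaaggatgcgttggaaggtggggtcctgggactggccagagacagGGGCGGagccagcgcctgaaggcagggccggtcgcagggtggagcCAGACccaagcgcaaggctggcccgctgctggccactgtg
Pla2g4a: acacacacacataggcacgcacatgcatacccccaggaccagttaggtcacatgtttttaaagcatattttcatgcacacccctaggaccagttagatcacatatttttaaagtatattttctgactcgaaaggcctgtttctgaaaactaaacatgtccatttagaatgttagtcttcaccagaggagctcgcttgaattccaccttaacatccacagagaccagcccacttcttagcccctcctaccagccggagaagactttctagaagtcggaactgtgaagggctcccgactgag

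Positions are counted from 1 at the annotated start. The Ptgs2 window held the letters ACGTCA, a core like the cyclic AMP response element, at 13 to 18, and they occurred in 7.51% of all 32851 promoters of that length. They overlapped an E-box, with the letters CACGTG, at 17 to 22 (7.15% of promoters). Ptgs2 also had a GC box, spelled GGGCGG, at -170 to -165 (35.7% of promoters). The SMAD core, spelled CAGAC, lay at -220 to -216, -209 to -205 and 35 to 39 in the Ptgs2 window, and with 49.6% of all promoters holding it a match is common. Alox5 had a GC box at -35 to -30 and a SMAD core at 11 to 15. Ptgs1 had a SMAD core at -79 to -75. Ptges had one at -207 to -203 and Ptger4 one at -165 to -161, and neither gene was called with TGFβ1. The Ptger2 and Ptgfr windows held no SMAD core. GC boxes also lay in the Ptges, Ptger4 and Ptgfr windows. The Pla2g4a window printed above held none of the 6 motifs, while that of its other start had the TATA box letters TATAAA at -200 to -195 (13.6% of promoters) and a SMAD core at -245 to -241. The AP-1 site, spelled TGANTCA, was in 7.81% of promoters and in none of the windows of these 8 genes. Pla2g4a and Ptgs2 are neighbours on chromosome 1, with 0 protein-coding genes and 2 genes of any type between them.

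**Figure D2:**
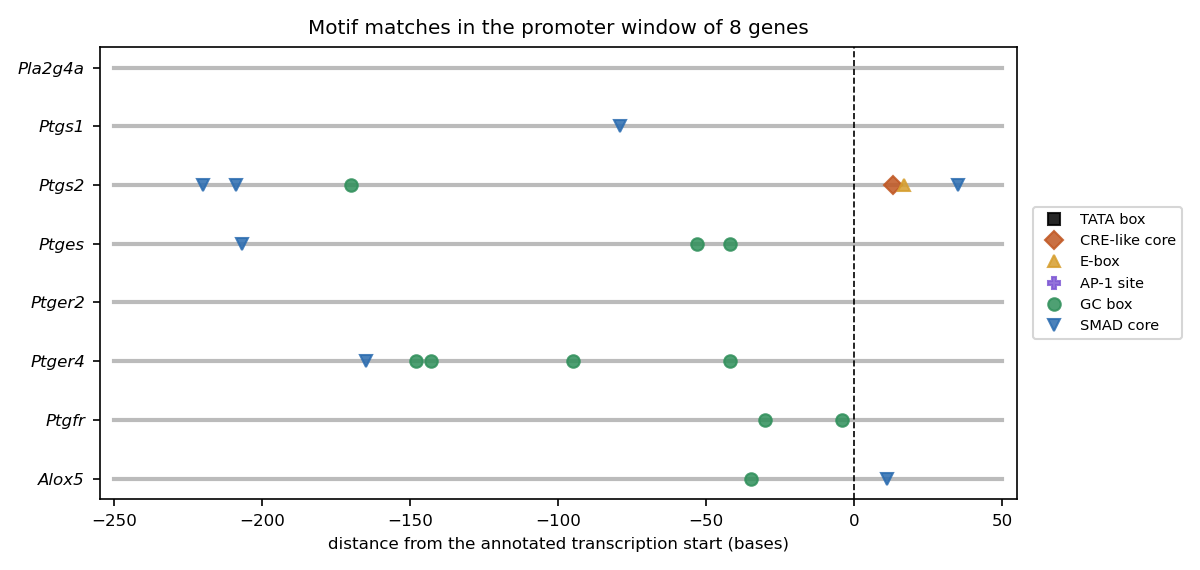
Motif matches in the promoter windows of 8 of the 10 genes, as distance in bases from the annotated start (dashed line). Each symbol is the first base of a match and grey lines are the windows, with the first annotated start shown for Pla2g4a. Matches near the start differ from gene to gene, and the Pla2g4a and Ptger2 windows hold none.

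Pla2g4a encodes the cytosolic phospholipase A2 that frees arachidonic acid and so stands at the head of both branches. Its log2 signal was 5.36, 5.43 and 5.28 on the control arrays, 6.20, 6.16 and 6.01 on the TGFβ1 arrays and 4.84, 5.03 and 4.84 on the ITD-1 arrays. The 3 groups did not overlap, with TGFβ1 on top and ITD-1 at the bottom. Pla2g4a rose 1.70-fold with TGFβ1 (log2 difference 0.77, SE 0.08, adjusted p = 0.00042 by limma). With ITD-1 it was 0.45 log2 units below control (95% interval -0.64 to -0.26), which did not pass the test (adjusted p = 0.0522 by limma). That value passed with cyclic loess between arrays (adjusted p = 0.0394), with probe sets below the median level left out (0.0312) and with array weights (0.0253). Between TGFβ1 and ITD-1 cells Pla2g4a differed 2.33-fold (adjusted p = 1.27e-05).

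Ptgs2 encodes the inducible cyclooxygenase COX-2 and had the widest range of the 10 genes, 3.45 log2 units. Its signal was 6.69, 6.81 and 6.82 on the control arrays, 8.60, 8.78 and 8.53 on the TGFβ1 arrays and 5.52, 5.32 and 5.86 on the ITD-1 arrays. Every TGFβ1 array lay above every control array and every control array above every ITD-1 array. Ptgs2 rose 3.64-fold with TGFβ1 (log2 difference 1.86, SE 0.13, adjusted p = 3.81e-05 by limma) and stood at rank 28 of all 25268 genes by log2 difference. With ITD-1 Ptgs2 fell by 1.20 on the log2 scale, or 2.30-fold (95% interval -1.49 to -0.92, adjusted p = 0.00495), the rank 8 lowest difference of all genes. The ITD-1 call held without each single array in turn and was lost without the 3 arrays of narrowest spread (log2 difference -1.06, adjusted p = 0.139), a setting chosen after the data were seen, and in the study's analysis of variance with Benjamini-Hochberg adjustment (0.0737). The study itself used no such adjustment, and by its own rule Ptgs2 was lower with ITD-1. TGFβ1 and ITD-1 cells differed 8.38-fold in Ptgs2 signal (adjusted p = 8.63e-07 by limma).

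Ptgs1 encodes COX-1, the cyclooxygenase that most tissues make without a stimulus. Its signal was 4.65, 4.65 and 4.65 on the control arrays, 4.88, 5.49 and 5.46 on the TGFβ1 arrays and 4.52, 4.43 and 4.58 on the ITD-1 arrays. The control and ITD-1 signals were low, not far above the array medians. The groups did not overlap, but TGFβ1 1 lay well below the other two arrays of its group and the control arrays had an SD of only 0.0041. Ptgs1 was called higher with TGFβ1 at 1.54-fold (log2 difference 0.63, SE 0.14, adjusted p = 0.0285 by limma). The call was lost under 11 of 23 alternatives. It was lost when control 1, 2 or 3 was left out (adjusted p = 0.0895, 0.0951 and 0.083), without TGFβ1 2 or 3 (0.107 and 0.0968) or without ITD-1 1 (0.0501), and without the 3 arrays of narrowest spread (0.262). Without TGFβ1 1 the log2 difference was 0.82. The replicate numbers may pair control and TGFβ1 arrays, and in a fit of those 6 arrays with the replicate number as a block the adjusted p was 0.0689. With ITD-1 the Ptgs1 difference was -0.14 (95% interval -0.46 to 0.18, adjusted p = 0.874), and TGFβ1 exceeded ITD-1 by 1.70-fold (adjusted p = 0.00651 by limma, 0.137 without the 3 arrays of narrowest spread).

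Of the terminal synthases 1 fell with TGFβ1 and 1 did not pass the test. Ptgis, which turns prostaglandin H into prostacyclin, had a signal of 7.36, 7.53 and 7.24 on the control arrays, 6.64, 6.68 and 6.73 on the TGFβ1 arrays and 7.52, 7.48 and 7.37 on the ITD-1 arrays. All TGFβ1 arrays lay below the other 6, while control and ITD-1 overlapped. With TGFβ1 Ptgis dropped by 0.69 log2 units, or 1.62-fold (SE 0.08, adjusted p = 0.000832 by limma), and kept this call under all 23 alternatives. With ITD-1 the difference was 0.08 (95% interval -0.10 to 0.27, adjusted p = 0.874). Ptgis is also a gene of vascular wall cells, and of 7 markers of pericytes and smooth muscle 2, Rgs5 and Abcc9, fell with TGFβ1. Of the other 5, Pdgfrb (log2 difference 0.39), Cspg4 (0.17), Notch3 (0.05), Kcnj8 (0.04) and Myh11 (-0.03) did not pass, and the median of the 7 was 0.04. With ITD-1 Rgs5 dropped by 1.02 log2 units (adjusted p = 0.00634 by limma, 0.086 without the 3 arrays of narrowest spread), and Ptgis did not pass. The mean level of the 7 markers was 5.56 to 5.72 on the control arrays, 5.33 to 5.34 on the TGFβ1 arrays and 5.39 to 5.52 on the ITD-1 arrays, and the part of any such cells left after depletion in the Ptgis result was not tested. Ptges, the inducible prostaglandin E synthase that is often described as a partner of COX-2, had group means of 4.38 ± 0.18 in control, 4.24 ± 0.22 in TGFβ1 and 4.32 ± 0.30 in ITD-1 cells. Its signal was low, near the array medians, and lay below them on TGFβ1 2 (3.99) and ITD-1 3 (4.06). Its TGFβ1 difference was -0.14 (95% interval -0.51 to 0.23) and its ITD-1 difference -0.05 (95% interval -0.42 to 0.31), and neither passed the test (adjusted p = 0.793 and 0.967 by limma).

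The listed receptors were 3. Ptger4 encodes EP4, a receptor for prostaglandin E that raises cyclic AMP, and its signal was 5.30, 5.55 and 5.51 on the control arrays, 5.94, 5.98 and 5.68 on the TGFβ1 arrays and 4.93, 5.01 and 5.48 on the ITD-1 arrays. Every TGFβ1 array lay above every control array, and ITD-1 3 lay within the control range. Its TGFβ1 difference was 0.41 log2 units (95% interval 0.08 to 0.74) and its ITD-1 difference -0.32 (95% interval -0.65 to 0.02), neither past the threshold (adjusted p = 0.18 and 0.649 by limma). With array weights the TGFβ1 difference passed (adjusted p = 0.0474). Set against ITD-1 cells, TGFβ1 cells had 1.66-fold more Ptger4 signal (adjusted p = 0.011 by limma), a call that was lost without TGFβ1 2 (0.0509), without the 3 arrays of narrowest spread (0.0866) and in the study's analysis of variance with Benjamini-Hochberg adjustment (0.065).

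Ptger2, which encodes EP2, the other prostaglandin E receptor that raises cyclic AMP, had a group mean of 2.74 ± 0.0099 in control, 2.72 ± 0.02 in TGFβ1 and 2.67 ± 0.15 in ITD-1 cells. Ptgfr, the prostaglandin F receptor, had 3.20 ± 0.10, 3.18 ± 0.16 and 3.16 ± 0.24. Both lay below the array median on all 9 arrays. The TGFβ1 differences of Ptger2 and Ptgfr were -0.02 and -0.02 (adjusted p = 0.952 and 0.971 by limma), and the ITD-1 differences -0.07 and -0.04 (0.883 and 0.975). No detection call was used here, so that signals this low cannot be told from no transcript. For Ptger2 3 arrays shared one value exactly, and 49.2% of all genes had a value shared by 2 or more arrays.

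Alox5 encodes 5-lipoxygenase, the enzyme that commits arachidonic acid to leukotrienes. Its signal was 8.30, 8.20 and 8.58 on the control arrays, 9.20, 9.31 and 9.20 on the TGFβ1 arrays and 7.40, 7.30 and 7.75 on the ITD-1 arrays. The 3 groups did not overlap, with TGFβ1 highest and ITD-1 lowest. Alox5 rose 1.84-fold with TGFβ1 (log2 difference 0.88, SE 0.13, adjusted p = 0.00294 by limma) and fell by 0.88 on the log2 scale, or 1.84-fold, with ITD-1 (95% interval -1.17 to -0.58, adjusted p = 0.0199). The ITD-1 call was lost without control 1, 2 or 3 (adjusted p = 0.0843, 0.0585 and 0.0764), without ITD-1 1 or 2 (0.0885 and 0.0737), in a fit of the control and ITD-1 arrays alone (0.112), in the study's analysis of variance with Benjamini-Hochberg adjustment (0.152) and without the 3 arrays of narrowest spread (0.304). By the study's own rule, which has no such adjustment, Alox5 was lower with ITD-1. TGFβ1 and ITD-1 cells differed 3.38-fold (adjusted p = 2.22e-05 by limma).

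Alox5ap, the membrane protein that presents arachidonic acid to 5-lipoxygenase, did not pass the test in any comparison. Its group means were 3.67 ± 0.03 in control, 3.79 ± 0.23 in TGFβ1 and 3.71 ± 0.02 in ITD-1 cells, below the array median on all 9 arrays, and 4 arrays shared one value exactly. The TGFβ1 difference was 0.11 (95% interval -0.12 to 0.34, adjusted p = 0.707) and the ITD-1 difference 0.03 (adjusted p = 0.973). Alox5 and its activating protein are known above all from white blood cells, and 12 leukocyte markers were measured. Their mean level was 3.96 to 3.99 on the control arrays, 3.96 to 4.06 on the TGFβ1 arrays and 3.96 to 4.06 on the ITD-1 arrays. With TGFβ1 1 of the 12 rose (Laptm5, from 4.15 to 5.03, adjusted p = 0.000974 by limma) and 1 fell (Itgam, from 4.75 to 4.01, adjusted p = 0.0084, and 0.06 without the 3 arrays of narrowest spread), and with ITD-1 0 were called (0 also at an unadjusted p under 0.05). Of the 12 leukocyte markers, 5 had a group mean above the median of all genes in control, 5 in TGFβ1 and 6 in ITD-1 cells. The defining leukocyte gene Ptprc was the lowest of the 12, with a mean of 2.89 in control, 2.85 in TGFβ1 and 2.86 in ITD-1 cells. Among those above that median in control cells were Cx3cr1 (5.50), Cd68 (4.53) and Coro1a (4.43). Levels of different probe sets do not compare abundance. Of 7 mast cell and 8 endothelial markers, 0 were called with either treatment (0 at an unadjusted p under 0.05 with either), and 0 had a group mean above the median of all genes. Of 10 fibroblast markers 0 were called with TGFβ1 (0 at an unadjusted p under 0.05) and 1, the collagen gene Col3a1, was lower with ITD-1 (adjusted p = 0.00511, and 0.117 without the 3 arrays of narrowest spread). Their mean level was 4.08 to 4.19 on the control arrays, 4.155 to 4.25 on the TGFβ1 arrays and 3.95 to 4.03 on the ITD-1 arrays, and the part of any such cells left after depletion in the values of the 10 genes was not tested.

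**Figure D3:**
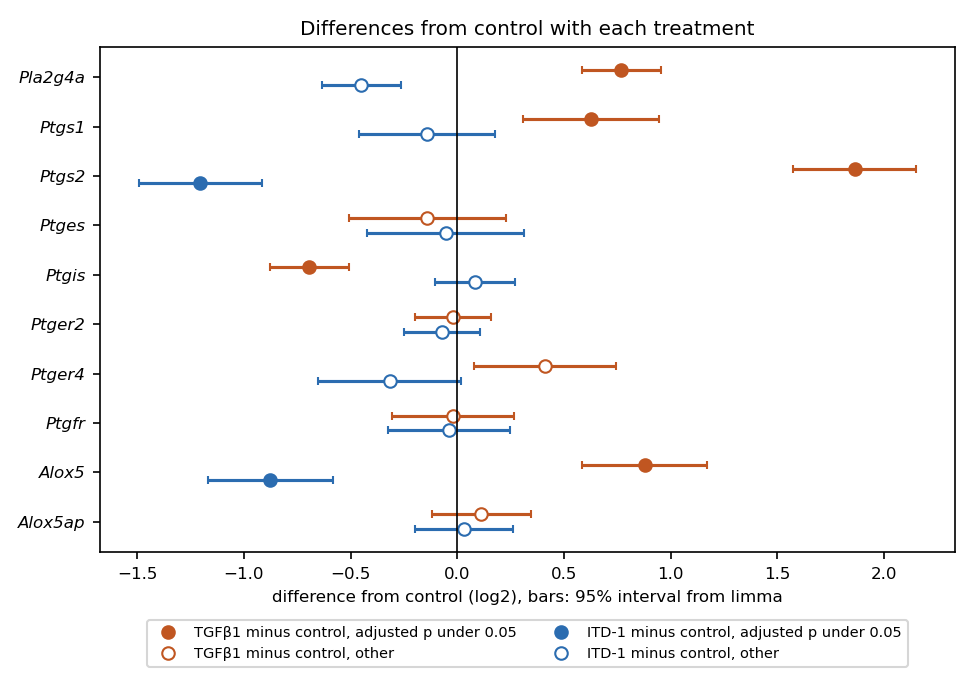
Log2 difference from control of each of the 10 genes with TGFβ1 (orange) and ITD-1 (blue), with 95% intervals from limma (n = 3 arrays per group). Filled points have an adjusted p under 0.05. Ptgs2 and Alox5 are filled on both sides of 0, Pla2g4a and Ptgs1 are filled with TGFβ1 alone, and Ptgis is the filled point below 0 with TGFβ1.

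Set directly against each other, TGFβ1 and ITD-1 cells differed in 6 of the 10 genes, 5 higher with TGFβ1 and 1 lower, where 6.04% of all genes were higher and 4.3% lower. Groups did not overlap for the same counts of 5 and 1 genes (11.5% and 12.1% of all genes). This comparison uses the same arrays as the others and is not a further replicate of them. Ptger4 was the gene called here and in neither comparison with control. Ptgis was 1.71-fold lower with TGFβ1 than with ITD-1 (adjusted p = 0.000222). Counted by arrays alone, 4 of the 10 genes (Ptgs1, Ptgs2, Alox5 and Pla2g4a) had every TGFβ1 array above every control array and every control array above every ITD-1 array, an order that 2.37% of all genes had.

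Over the 9 arrays, which share their treatments, Ptgs2 correlated with Alox5 (Pearson r = 0.98), Pla2g4a (0.98), Ptger4 (0.91) and Ptgs1 (0.88) and negatively with Ptgis (-0.93). The coefficients with Ptger2 (0.33), Alox5ap (0.27), Ptgfr (-0.01) and Ptges (-0.28) were small. The genes most like Ptgs2 among all tested were Thbs1, which encodes the matrix protein thrombospondin 1 (r = 0.998), Tmem43 (0.997) and Arhgap42 (0.997). Those most like Alox5 were Rcn1 and Cdr2 (0.99 each) and Trp53i11 (0.99), and those most like Pla2g4a were P4hb, a protein disulfide isomerase (0.996), Gss, the glutathione synthetase (0.995), and Il4ra, a receptor chain for interleukin 4 (0.994). For Ptger4 they were Ddx51, Mtpn and Serpinh1 (0.993, 0.985 and 0.984), and for Ptgs1 Cul7, Itpr3 and Tpp1 (0.975, 0.967 and 0.966). These coefficients describe 9 arrays, and each was picked as one of the highest over all 25268 genes.

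Of 64 further genes of prostanoid and leukotriene synthesis, breakdown and reception 61 were measured, and with TGFβ1 4 were called higher and 1 lower (3.76% and 2.78% of all genes), with 56 not called (14 of the 61 at an unadjusted p under 0.05 by limma) and a median log2 difference of -0.04 beside -0.01 for all genes. With ITD-1 0 of the 61 were higher and 1 lower (0.0594% and 0.582% of all genes, with 5 of the 61 at an unadjusted p under 0.05). The share of all genes at that unadjusted threshold was not counted, so the 14 and the 5 cannot be read as an excess. By class, with TGFβ1 1 of 18 genes of the phospholipase A2 list rose (Plaat3), and 1 of 7 of the prostanoid receptor list (Ptgfrn, a partner of a receptor and not a receptor itself). Of the leukotriene synthesis list 2 of 9 rose (Lta4h, an enzyme, and Cotl1, a binding partner of 5-lipoxygenase). Of the breakdown and transport list 1 of 6 fell (Ptgr2), while 0 of 9 other prostanoid synthases, 0 of 6 leukotriene receptors and 0 of 6 other lipoxygenases were called. In each group only 1 of the 6 leukotriene receptors and 0 of the 6 other lipoxygenases had a mean above the median of all genes. For the rest of these 2 classes signal cannot be told from no transcript.

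Among leukotriene genes Lta4h, the hydrolase that makes leukotriene B from leukotriene A, acts directly after Alox5. Its signal was 6.61, 6.60 and 6.46 on the control arrays, 7.23, 7.28 and 7.16 on the TGFβ1 arrays and 6.11, 6.43 and 6.03 on the ITD-1 arrays. The 3 groups did not overlap, and Lta4h rose 1.59-fold with TGFβ1 (log2 difference 0.66, SE 0.10, adjusted p = 0.00387 by limma), while the ITD-1 difference of -0.37 did not pass (0.269). Cotl1, an actin-binding protein known to bind 5-lipoxygenase, rose 1.81-fold with TGFβ1 (log2 difference 0.85, SE 0.14, adjusted p = 0.00573), from 5.04 ± 0.10 to 5.89 ± 0.30. Mgst3, a microsomal glutathione transferase that can form leukotriene C, was 0.72 log2 units higher with TGFβ1, short of the threshold (adjusted p = 0.061), and passed it under 9 of 23 alternatives, among them the replicate number as a block (0.0128) and the fits without control 1 (0.0245) or TGFβ1 3 (0.0282). TGFβ1 exceeded ITD-1 in Lta4h (2.05-fold, adjusted p = 0.000148), Cotl1 (2.10-fold, 0.000845) and Mgst3 (1.94-fold, 0.0106, and 0.0702 in the adjusted analysis of variance). The leukotriene C synthase Ltc4s had a TGFβ1 difference of 0.27 (adjusted p = 0.217 by limma). Between TGFβ1 and ITD-1 its log2 difference of 0.32 did not pass (adjusted p = 0.103). That difference passed under 2 of 22 alternatives, without ITD-1 3 (log2 difference 0.41, adjusted p = 0.0332) and with array weights (0.0286).

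Of the other genes Ptgfrn, which encodes a membrane protein that binds the prostaglandin F receptor and dampens it, moved most. Its signal was 7.17, 7.26 and 7.40 on the control arrays, 8.55, 8.52 and 8.48 on the TGFβ1 arrays and 6.49, 6.41 and 6.39 on the ITD-1 arrays, with no overlap. With TGFβ1 Ptgfrn rose by 1.24 log2 units (SE 0.07, adjusted p = 1.87e-05 by limma), and in ITD-1 cells it dropped by 0.84 (adjusted p = 0.00195, and 0.086 without the 3 arrays of narrowest spread), whereas its receptor Ptgfr passed in neither comparison. Plaat3, a membrane-bound phospholipase, rose 1.48-fold with TGFβ1 (adjusted p = 0.0207) from 8.08 ± 0.27 to 8.64 ± 0.07, a call lost without control 2 (0.0618) or without TGFβ1 1, 2 or 3 (0.0868, 0.0544 and 0.0573) and without the 3 arrays of narrowest spread (0.0971). With ITD-1 the Plaat3 difference of -0.47 log2 units did not pass (adjusted p = 0.202 by limma). It passed under 1 of 22 alternatives, without control 3 (log2 difference -0.61, adjusted p = 0.0415). Ptgr2, a prostaglandin reductase of the breakdown path, decreased by 0.50 log2 units in TGFβ1 cells (adjusted p = 0.0422), and that call was lost without control 1 or 2 (0.144 and 0.161), without TGFβ1 1, 2 or 3 (0.077, 0.107 and 0.132) or without ITD-1 1 (0.0683), and without the 3 arrays of narrowest spread (0.0504).

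The remaining genes with the widest TGFβ1 differences in their class did not pass. Among synthases these were Akr1c18, an aldo-keto reductase (log2 difference 0.38, adjusted p = 0.0605), and Prxl2b, a prostaglandin F synthase (-0.32, 0.142). Akr1c18 passed without control 3 (0.046), without TGFβ1 3 (0.0362) and without the 3 arrays of narrowest spread (0.0253). Its group means of 3.14 ± 0.14 in control and 3.52 ± 0.14 in TGFβ1 cells lay below the array medians, where signal cannot be told from no transcript. Prxl2b passed in the control and TGFβ1 arrays alone with the replicate number as a block (0.049). Pla2g6, a calcium-independent phospholipase, was at -0.29 (0.293) and the reductase Ptgr1 at 0.18 (0.706). Ptgdr2, a prostaglandin D receptor, was at -0.18 (0.303), and of the leukotriene receptor class Cysltr1 was at -0.12 (0.68) and Gpr17 at -0.10 (0.719). Among lipoxygenases Alox12b was at 0.07 (0.774) and Alox12 at -0.07 (0.867). The group means of Cysltr1, Gpr17, Alox12b and Alox12 also lay below the array medians.

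**Figure D4:**
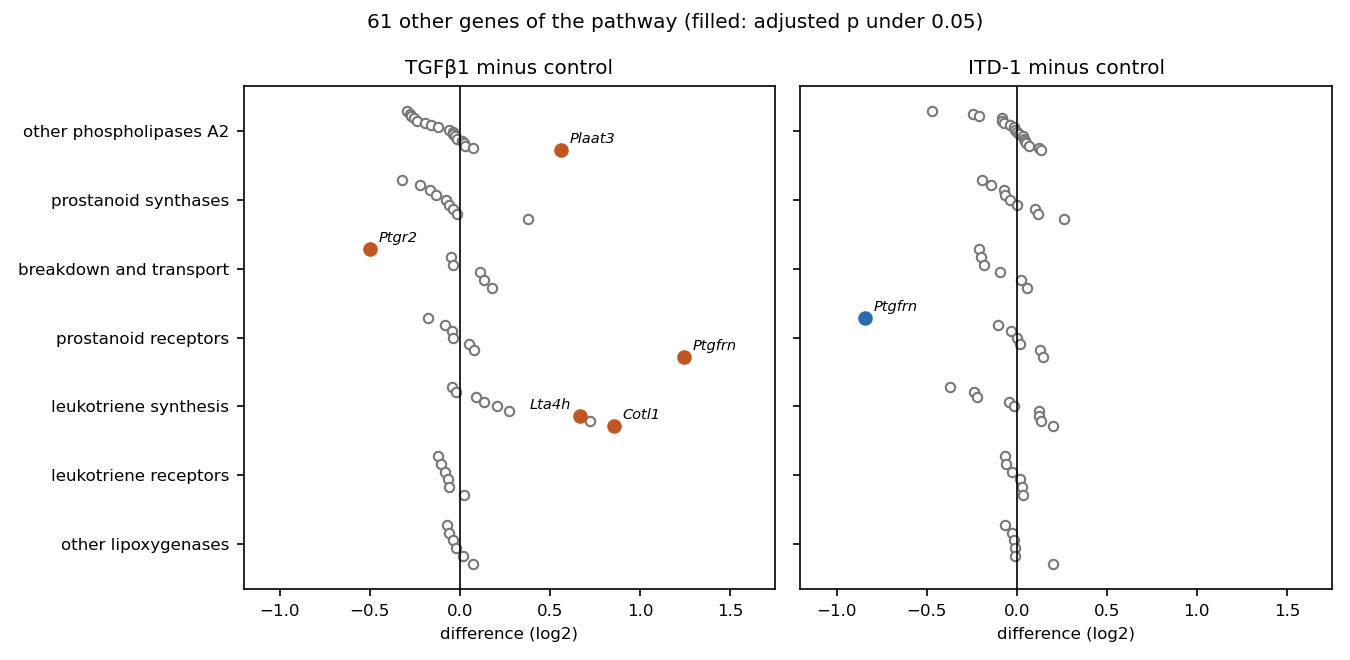
Log2 difference from control of 61 other genes of the pathway with TGFβ1 (left) and ITD-1 (right), by class. Each point is a gene, filled and named where the adjusted p was under 0.05 by limma. With TGFβ1 5 genes are filled and with ITD-1 1, and Ptgfrn is filled on opposite sides of 0.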

How the data were processed

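RNA of 3 groups was measured on 9 Affymetrix MouseGene ST arrays. The authors normalized the arrays with RMA and custom CDF version 22 and deposited log2 values, 1 probe set per Entrez gene. The genome build and any detection call were not given in the sources used here. Of 25428 probe sets 24705 were named by the platform table and 564, Ptgs1 among them, by RefSeq through the Entrez ID (both tables gave the same symbol for 100% of 24673), 159 had no symbol and 1 was set aside, leaving 25268.

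The groups came from the sample labels. Limma 3.58.1 in R 4.3.3 (lmFit and eBayes, a mean per group, all 9 arrays, 3 contrasts) gave differences, SE, 95% intervals and Benjamini-Hochberg adjusted p-values, two-sided, with calls under 0.05, and was tested on simulated data. With 3 arrays a group precision is limited, and an exact permutation test cannot go below 0.1. The study's own rule combined a one-way analysis of variance (unadjusted p under 0.05) with a minimum of 1.5-fold. The Benjamini-Hochberg adjustment of that analysis of variance was added here. By the study's rule Ptger4 was higher with TGFβ1 than with ITD-1.

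The 10 genes and all gene lists were chosen with earlier results of these data known. Named were all 10 genes, with values on each array for those called or with a range of at least 1 log2 unit, every called gene of the pathway lists and the 2 widest TGFβ1 differences per list, at most 3 genes of a marker list and the 3 genes most correlated with each wide-ranging gene. Ltc4s, Ptprc and the marker genes beyond those were chosen after their values were seen. Residuals of same-numbered control and TGFβ1 arrays correlated at 0.137, 0.155 and 0.304, all over 0.1, while the labels do not say that numbers mark pairs. For control and ITD-1 the coefficients were 0.143, -0.068 and -0.072, and for TGFβ1 and ITD-1 0.088, -0.110 and -0.117. Arrays of different numbers also passed 0.1 in places. These were control 1 and TGFβ1 2 (0.101), control 3 and ITD-1 2 (0.161), TGFβ1 2 and ITD-1 3 (0.123), and TGFβ1 3 and ITD-1 2 (0.167). Alternatives were centring, cyclic loess, a level filter, trend and robust eBayes, the methods' test, fits of 2 groups, array weights, a replicate block, unnamed probe sets and leaving out each array. Those on naming, the 3 arrays of narrowest spread and a block in only 2 groups were added after seeing the data. Promoters and motif matches came from RefSeq, GRCm38.p6.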

Additional observations from a re-analysis of the deposited data

How the results depend on the processing

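Of 30 gene and comparison pairs for the 10 genes, 23 kept their side of the threshold under every alternative run and 0 reversed direction while called. The TGFβ1 calls of Ptgs2, Alox5, Pla2g4a and Ptgis held under all 23. With TGFβ1, 1651 genes were called, against 855 by the methods' rule and 915 without the 3 arrays of narrowest spread, a setting chosen after seeing the data, and 1104 to 1800 leaving out 1 array. With ITD-1, 162 were called, against 21 by the study's analysis of variance with Benjamini-Hochberg adjustment, 65 in a fit of the 2 groups, 106 with the replicate number as a block, 0 without the 3 arrays of narrowest spread and 38 to 153 leaving out 1 array (38, 40 and 57 without control 1, 2 and 3, 103 without TGFβ1 1, and 82 and 93 without ITD-1 1 and 2). Between TGFβ1 and ITD-1, 2613 were called, against 1366 by the methods' rule, 1671 without those 3 arrays and 1985 to 2535 leaving out 1. Of the 10 genes 2 were called with ITD-1, against 0 by the adjusted analysis of variance, 1 in the 2-group fit, 0 without those 3 arrays and 1 to 2 leaving out 1 array, and 3 with cyclic loess, the level filter or array weights. The methods' rule gave 2 with ITD-1. With TGFβ1 4 to 5 were called under every alternative, and between TGFβ1 and ITD-1 5 to 6 leaving out 1 array and 4 without those 3. The cause was not tested. As a block, those 3 arrays changed no call of the 10 genes.

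The pairing block left the TGFβ1 count at 1583 (1581 in control and TGFβ1 arrays alone), with Ptgs1 lost in the latter (adjusted p = 0.0689) and Mgst3 gained in both (0.0128 and 0.0186). The replicate block in all arrays also brought Ptgr2 past the threshold between TGFβ1 and ITD-1 (log2 difference -0.29, adjusted p = 0.0445). In control and TGFβ1 arrays alone it brought Prxl2b past the threshold (0.049). It changed no other call of the 10 genes or of the pathway genes named. Ptgs1 with TGFβ1 was also lost in the adjusted analysis of variance (0.123), in the 2-group fit (0.0813) and with array weights (0.0709). Plaat3 and Ptgr2 with TGFβ1 were lost in the adjusted analysis of variance (0.0925 and 0.143) and in the 2-group fit (0.066 and 0.0588), and Ptgr2 also with arrays centred on their medians (0.0709). Mgst3 with TGFβ1 was also gained with cyclic loess (0.0453), the level filter (0.0305), array weights (0.0171), the 3 arrays of narrowest spread as a block (0.0111) and the methods' rule.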
